A study of Mus musculus with 6 samples.

Results

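The semaphorin signalling genes were compared between osteoblasts of WT mice and of mice with a conditional deletion of the Tet genes in skeletal mesenchyme. They were taken as all genes of the deposited count table whose mouse symbol begins with Sema and a digit or with Plxna, Plxnb, Plxnc or Plxnd, or is Nrp1 or Nrp2. The rule uses the symbol alone, but this gene family was picked for description with earlier results of these data known. This gave 34 of 55471 genes, namely 20 semaphorins, 9 plexins, 2 neuropilins and 3 antisense transcripts of Plxna4. The cells were primary osteoblasts from the skull cap, or calvaria, of C57BL/6 mice at an age of 3 days, cultured before RNA extraction. Poly(A) RNA was sequenced in 3 libraries labelled WT (wild type) and 3 labelled TCKO (Prx1-Cre with homozygous floxed, fl/fl, alleles of Tet1, Tet2 and Tet3, the triple conditional knockout). Prx1-Cre is a recombinase active in the mesenchyme of the limbs and part of the skull, so cells of other origin in a culture keep intact Tet genes. The sources do not say whether the WT mice carried floxed alleles, nor whether the libraries of a genotype came from separate mice or cultures. The p-values therefore measure only the spread between these libraries, which may be technical.

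Semaphorins are secreted or membrane-bound guidance cues that were first studied in growing axons and that also act on vessels, immune cells and bone. Plexins are their signalling receptors and reach the cytoskeleton through small GTPases and actin regulators. Most secreted class 3 semaphorins cannot bind a plexin by themselves and need a neuropilin as a co-receptor, whereas Sema3e can bind Plxnd1 directly and Sema7a, which is tethered to the membrane by a GPI anchor, binds Plxnc1 and integrins. In bone, Sema3a from osteoblasts restrains osteoclast formation through neuropilin and plexin A receptors, and Sema4d from osteoclasts acts on osteoblasts through Plxnb1. TET enzymes oxidise methylated cytosine, which is found mainly in CpG dinucleotides.

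Library totals were between 8019999 and 10177214 counts, of which the 34 genes held between 0.285% and 0.331%. At this depth 3 counts made 0.295 to 0.374 CPM, the count scaled to the library total. This was taken as the floor, a choice that covers counting error only. Of the targeted genes, Tet1 was lower in the libraries labelled TCKO (log2 fold change -0.97 ± 0.16 SE, edgeR adjusted p = 0.00648), Tet2 did not pass the test (-0.14 ± 0.14, edgeR adjusted p = 0.545) and Tet3 was higher (0.51 ± 0.09, edgeR adjusted p = 0.00745). Counts over all exons do not separate the deleted exons from the rest, so every direction below rests on the library labels. Replicates 1 and 2 of a genotype were close to each other, their chi-square divided by its degrees of freedom being 1.69 in WT and 2.04 in TCKO, against 16.5 to 23.3 for the pairs with replicate 3. TCKO replicate 3 carried 4583 counts of Xist and 0 of Ddx3y, the female pattern, against at most 4 and at least 675 in the other libraries, and both replicate 3 libraries had a higher mitochondrial share (2.22% and 2.47% against 1.11% to 1.24%). Results are therefore also given within replicates and with replicates 1 and 2 summed, which leaves 2 samples for each genotype.

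The cell type on the label was checked with marker genes. The osteoblast transcription factors Runx2 and Sp7 and the bone collagen gene Col1a1 were present in every library, while the late markers Bglap and Dmp1 stayed at or under 3 counts per library. Of 7 tested osteoblast markers, Runx2, Alpl and Col1a1 were lower and Spp1 was higher in the libraries labelled TCKO. All 7 chondrocyte markers were lower, their summed level being between 6245 and 8161 CPM in WT and between 684 and 969 CPM in TCKO, so the WT libraries also held abundant cartilage transcripts. Haematopoietic markers summed to between 90.1 and 136 CPM in WT and between 38.8 and 76.6 CPM in TCKO, and 3 of 10 passed as lower. The endothelial list summed to between 6.66 and 9.21 CPM in WT and 38.0 and 102 CPM in TCKO, but without Kdr it summed to between 6.30 and 7.64 CPM and between 4.57 and 8.30 CPM, and Pecam1 and Cdh5, which define endothelial cells, stayed at or under 7 counts per library. Of the 3 endothelial markers that could be tested, Kdr and Esam were higher and Erg was lower. Schwann cell and neuron markers summed to between 82.6 and 104 CPM in WT and between 81.6 and 89.0 CPM in TCKO, with 1 of 5 tested markers lower (S100b). In bulk RNA, fewer cells of a type and less RNA per cell cannot be told apart, and the part of these cell types in the results below was not tested.

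In the libraries labelled TCKO ligand genes moved in both directions, and among the receptors Nrp1 and Plxnc1 moved by more than 2-fold. Sema7a, Sema3e, Sema4f, Sema3a and Sema3d rose, as did the co-receptor Nrp1, all by more than 2-fold, and Plxnc1, Sema3c, Sema3b and Sema4d fell by more than 2-fold. Of the 34 genes, 26 passed the filter on low counts, of which 9 were higher and 6 lower at an adjusted p under 0.05 in the edgeR quasi-likelihood test, and 11 did not pass. Over all 13826 tested genes, 9.07% were higher and 8.63% lower by this rule. With a fold change over 2 in addition, 6 were higher and 4 lower, against 3.16% and 3.19% of all tested genes. The 3 WT and 3 TCKO libraries did not overlap in CPM for 11 tested genes that were higher and 7 that were lower, against 19.4% and 18.9% of all tested genes. The median log2 fold change of the 26 genes was 0.28, against 0.00020 over all tested genes. By class, 7 of 16 tested semaphorins were higher and 3 lower, while of 10 tested receptors Nrp1 and Plxnd1 were higher and Plxna2, Plxnb2 and Plxnc1 lower. The calls of Sema7a, Sema3a, Sema3c, Sema3e, Sema3b, Nrp1 and Plxnc1 held in each of the 17 alternative analyses. The other 8 calls were each lost in at least 1 of them, and 4 of the 9 higher and 3 of the 6 lower genes passed with replicates 1 and 2 summed, a fit in which the share over all tested genes also fell, to 1.57% higher and 1.22% lower.

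**Figure D1:**
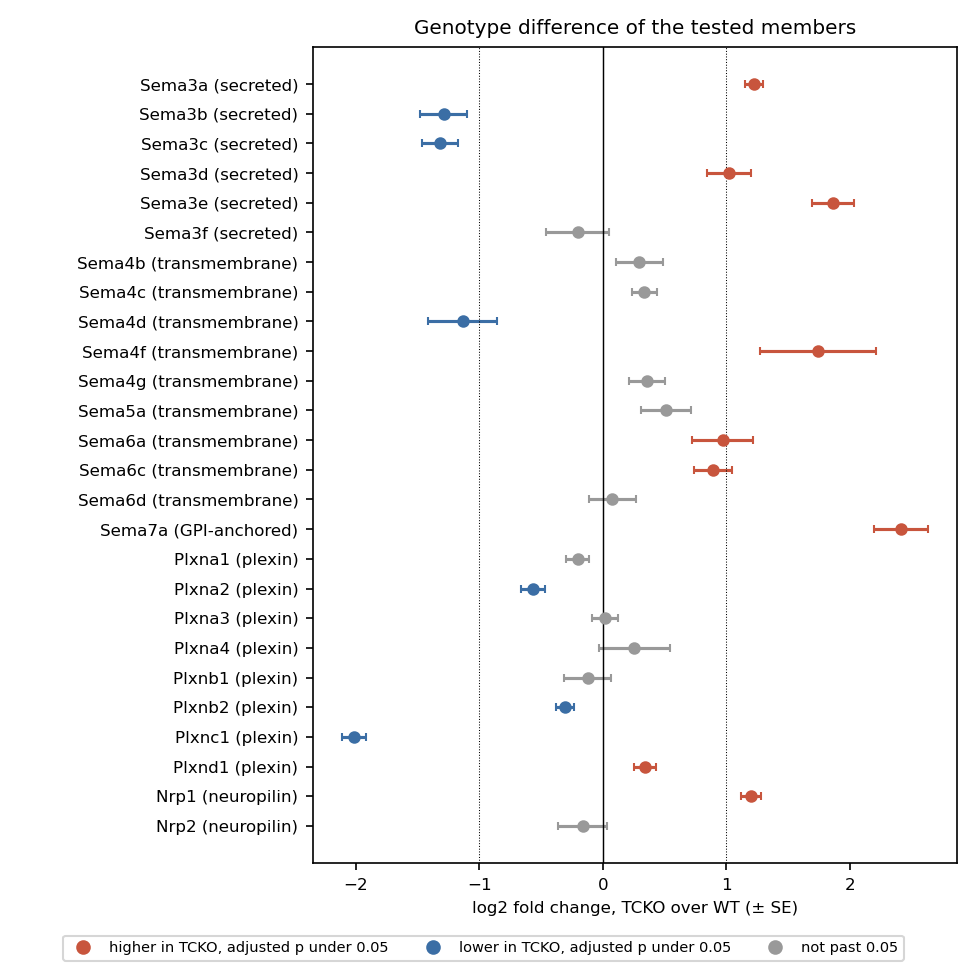
Log2 fold change of TCKO over WT (x axis) with its standard error as bars for the 26 tested genes (rows), coloured by whether the edgeR adjusted p was under 0.05; dotted lines mark 2-fold. Sema7a (2.41) and Plxnc1 (-2.01) lie farthest out on either side.

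Levels can be compared between genes as RPKM (counts per kilobase of summed exon length, scaled to the library as in CPM). In WT the receptors Plxnb2 (136 ± 3.36 RPKM, SD, n = 3) and Plxna1 (78.9 ± 3.28 RPKM) were the most abundant of all 34 genes, followed by Sema3c (38.1 ± 6.62 RPKM). Nrp2 (21.6 ± 2.63 RPKM) and Sema7a (19.3 ± 5.44 RPKM) came next and overlapped between libraries, and Plxnc1 followed at 8.53 ± 0.22 RPKM. From Nrp1 (7.16 RPKM) down to Plxnd1 (2.85 RPKM) the genes formed a series in which each overlapped its neighbour. In the libraries labelled TCKO, Plxnb2 (109 ± 1.94 RPKM) and Sema7a (103 ± 19.2 RPKM) led and overlapped each other, ahead of Plxna1 (68.6 ± 6.56 RPKM) and Sema3e (22.9 ± 4.0 RPKM). From Sema3e through Nrp2, Nrp1, Sema4f and Sema3c to Sema3a (14.1 ± 0.64 RPKM) each gene again overlapped its neighbour. All 20 semaphorins together held between 96.3 and 99.5 RPKM in WT and between 176 and 210 RPKM in TCKO, whereas the 9 plexins held between 232 and 248 RPKM in WT and between 189 and 206 RPKM in TCKO. Neither sum overlapped between the genotypes, but each rests on few genes. Sema7a alone went from 19.3 to 103 RPKM, and the plexin sum was mostly Plxnb2 and Plxna1, of which Plxna1 did not pass the test.

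**Figure D2:**
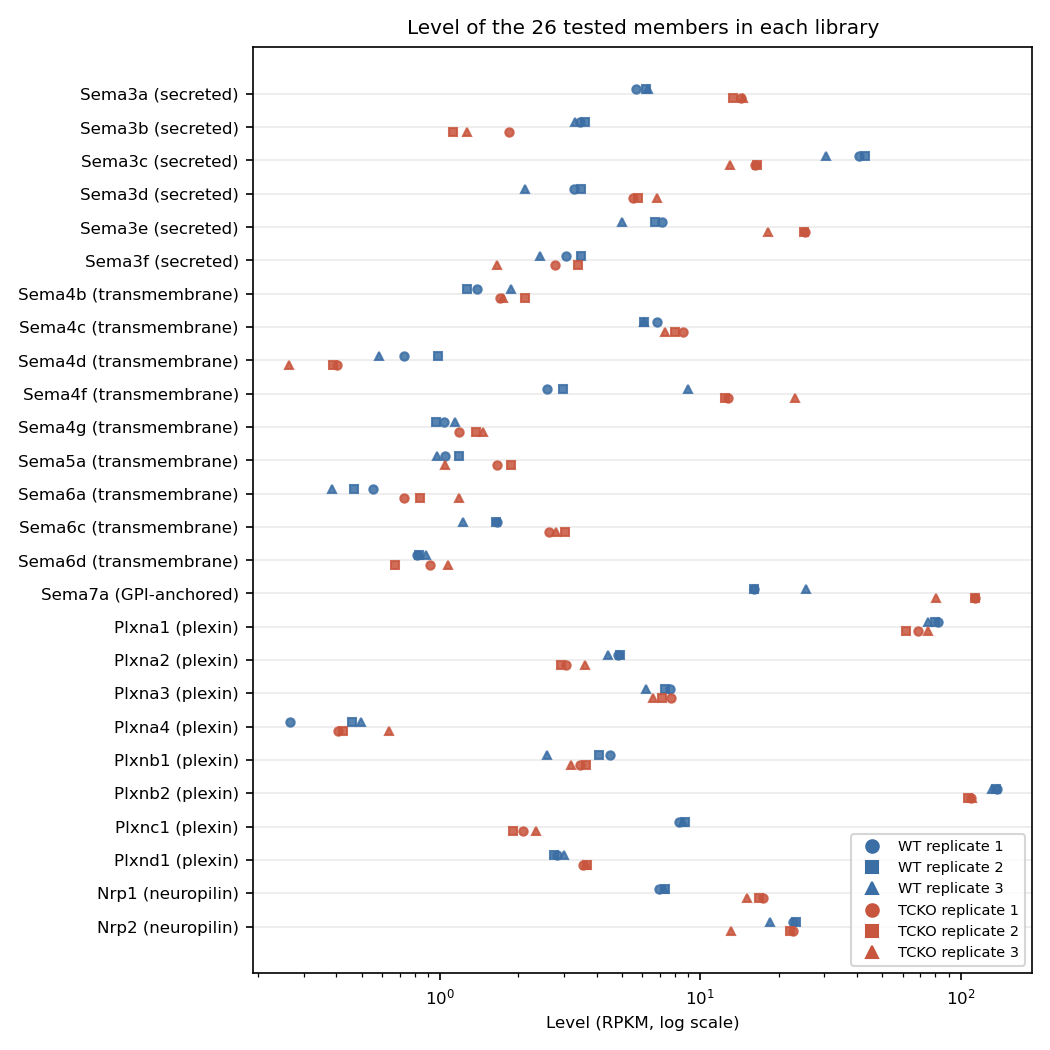
Level in RPKM (x axis, log scale) of the 26 tested genes (rows) in each library, with marker shape for the replicate number and colour for the genotype. The WT and TCKO points of Sema3a, Sema3c, Sema3e, Sema7a, Plxnc1 and Nrp1 are separated, while those of Nrp2, Sema3f and Plxna3 are mixed.

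Among the secreted class 3 ligands, Sema3a, Sema3d and Sema3e rose and Sema3c and Sema3b fell, while Sema3f did not pass the test and Sema3g was too low to test. Sema3a (ENSMUSG00000028883, chromosome 5, 13125414 to 13602565, GRCm38, plus strand) was counted 651, 860 and 720 times in the WT libraries (in the order of replicates 1, 2 and 3, as below), against 1747, 1496 and 1807 times in those labelled TCKO. The groups did not overlap, at 84.0 ± 4.52 CPM against 196 ± 8.87 CPM (SD, n = 3), and the log2 fold change was 1.22 ± 0.08 (SE, edgeR adjusted p = 0.000124). Sema3e (ENSMUSG00000063531, chromosome 5, 14025276 to 14256689), the ligand of Plxnd1, gave 548, 622 and 384 counts per WT library, with 2055, 1879 and 1514 per TCKO library. Every TCKO library was above every WT library, the means being 58.3 ± 10.4 CPM and 213 ± 37.1 CPM and the log2 fold change 1.87 ± 0.17 (edgeR adjusted p = 0.000521). Sema3d (ENSMUSG00000040254, chromosome 5, 12383385 to 12588948), which binds Nrp1, was at 232, 301 and 151 counts among the WT libraries, compared with 415, 399 and 524 among the TCKO libraries. The groups did not overlap and the log2 fold change was 1.02 ± 0.18 (edgeR adjusted p = 0.0079), but the difference was wider within replicate 3 (1.58) than within replicates 1 and 2 (0.71 and 0.69, log2 of CPM plus 2), and summing replicates 1 and 2 raised the edgeR adjusted p to 0.0812.

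Sema3c (ENSMUSG00000028780, chromosome 5, 17574281 to 17730268), which signals through both neuropilins and Plxnd1, was counted 2393, 3080 and 1799 times in the WT libraries against 1016, 952 and 828 times in those labelled TCKO. In RPKM it was the most abundant semaphorin in every WT library, and in CPM its highest TCKO level of 118 CPM lay below its lowest WT level of 218 CPM. The log2 fold change was -1.32 ± 0.15 (edgeR adjusted p = 0.00129), and the difference was -1.31, -1.36 and -1.21 within replicates 1, 2 and 3 (log2 of CPM plus 2). Sema3b (ENSMUSG00000057969, chromosome 9, 107597674 to 107609229), which can bind either neuropilin, gave 136, 173 and 130 counts per WT library, with 77, 43 and 54 per TCKO library. The groups were again separate, at 16.5 ± 0.75 CPM and 6.73 ± 1.82 CPM, the log2 fold change being -1.29 ± 0.19 (edgeR adjusted p = 0.0040). Sema3f (ENSMUSG00000034684, chromosome 9, 107681500 to 107710475), a ligand of Nrp2 whose gene lies in the same region and on the same strand as Sema3b, was at 131, 182 and 104 counts among the WT libraries, compared with 126, 142 and 77 among the TCKO libraries. Its groups overlapped and its log2 fold change of -0.20 ± 0.26 did not pass (edgeR adjusted p = 0.633). Sema3g had between 1 and 7 counts in a library.

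The sum of the class 3 transcripts overlapped between the genotypes, while its makeup differed. The 7 genes summed to 59.9 ± 8.86 RPKM in WT and 62.5 ± 5.80 RPKM in TCKO (SD, n = 3). Sema3c made up between 61.2% and 64.6% of the sum in WT and between 23.3% and 25.3% in TCKO. Sema3e went from between 10.03% and 11.3% to between 32.8% and 38.4%, and Sema3a from between 8.98% and 12.6% to between 20.5% and 26.2%. None of these ranges overlapped between the genotypes. The ratio of Sema3e to Sema3c in RPKM was between 0.155 and 0.176 in WT and between 1.41 and 1.56 in TCKO, so Sema3c was the higher of the pair in each WT library and Sema3e in each library labelled TCKO.

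**Figure D3:**
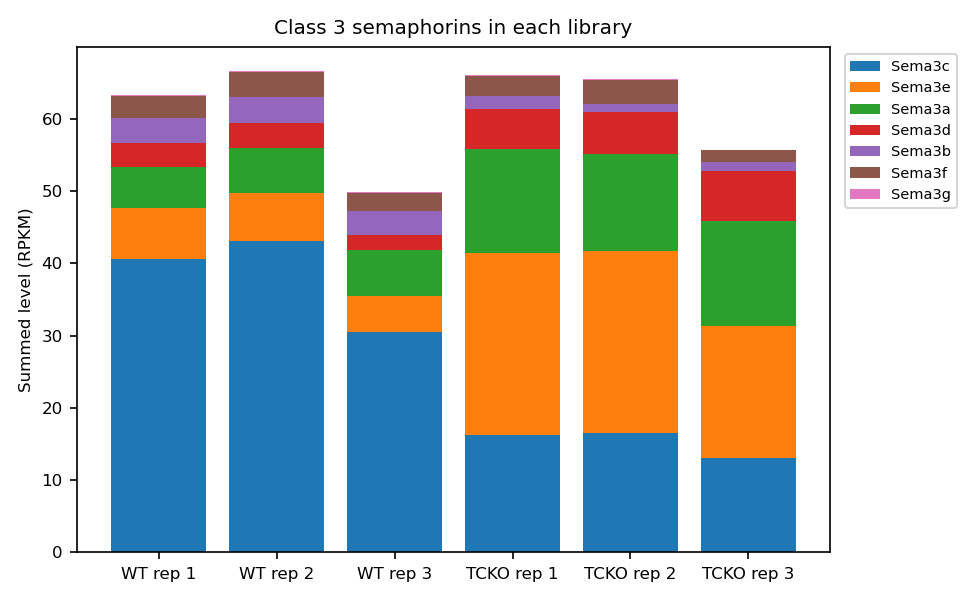
Summed level of the 7 class 3 semaphorins in RPKM (y axis) in each library (x axis), stacked by gene. The bars reach between 49.9 and 66.6 RPKM in both genotypes, and the Sema3c segment is the main one in WT while Sema3e is the main one in TCKO.

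Sema3d, Sema3a, Sema3e and Sema3c lie in this order on the plus strand within 5.35 Mb of chromosome 5 (12383385 to 17730268, GRCm38). Of the 77 annotated genes in that interval 10 were tested, and Sema3d, Sema3a and Sema3e, which rose, lie toward one end of it and Sema3c, which fell, at the other. Of the 6 tested genes that are not semaphorins, Gm43719 (log2 fold change 1.34), Speer3 (1.16) and Gm6650 (1.74), which lie between Sema3a and Sema3e, were higher (edgeR adjusted p between 0.00835 and 0.022), and the other 3 did not pass. One of these, Gm10108, lies between Sema3d and Sema3a (-0.06, edgeR adjusted p = 0.921). Over all tested genes 9.07% were higher. Gm43719, Speer3 and Gm6650 had low totals of 318, 314 and 90 counts over all libraries. Gm43719 starts shortly after the end of Sema3a on the same strand. Cacna2d1, a calcium channel subunit gene, and Hgf, the gene of the growth factor that binds Met, lie between Sema3e and Sema3c and did not pass (0.23 ± 0.11 and 0.20 ± 0.49, edgeR adjusted p = 0.174 and 0.812).

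The sequence before the start site is shown for the 3 neighbouring genes that rose together and, for contrast in CpG content, for the genes with the widest change in each direction, Sema7a and Plxnc1. The windows are the 250 bases before the RefSeq start on GRCm38.p6, read 5′ to 3′ on the strand of the gene, with CpG dinucleotides in capitals. They lie at chr5:12382916-12383165 (Sema3d, plus strand), chr5:13396534-13396783 (Sema3a, plus strand), chr5:14025026-14025275 (Sema3e, plus strand), chr9:57939862-57940111 (Sema7a, plus strand) and chr10:94944846-94945095 (Plxnc1, minus strand), outside the exons of the deposited genes. The Sema3a window is within the deposited gene span, which begins far upstream of it, at 13125414. It is therefore not the sequence before the start of the deposited gene.
Sema3d: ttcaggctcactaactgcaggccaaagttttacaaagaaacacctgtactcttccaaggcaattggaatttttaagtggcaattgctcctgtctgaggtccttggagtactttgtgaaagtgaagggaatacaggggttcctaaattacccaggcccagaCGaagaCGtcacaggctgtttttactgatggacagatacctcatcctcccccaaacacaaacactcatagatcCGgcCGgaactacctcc
Sema3a: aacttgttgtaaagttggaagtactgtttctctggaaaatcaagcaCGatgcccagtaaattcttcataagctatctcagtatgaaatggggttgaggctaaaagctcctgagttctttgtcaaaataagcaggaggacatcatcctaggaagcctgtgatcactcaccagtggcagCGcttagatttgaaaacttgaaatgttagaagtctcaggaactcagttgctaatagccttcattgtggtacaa
Sema3e: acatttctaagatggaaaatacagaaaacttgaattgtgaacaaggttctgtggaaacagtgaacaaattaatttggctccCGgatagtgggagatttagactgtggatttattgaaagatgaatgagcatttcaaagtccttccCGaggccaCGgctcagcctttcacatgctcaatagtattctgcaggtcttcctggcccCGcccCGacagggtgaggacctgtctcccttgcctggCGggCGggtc
Sema7a: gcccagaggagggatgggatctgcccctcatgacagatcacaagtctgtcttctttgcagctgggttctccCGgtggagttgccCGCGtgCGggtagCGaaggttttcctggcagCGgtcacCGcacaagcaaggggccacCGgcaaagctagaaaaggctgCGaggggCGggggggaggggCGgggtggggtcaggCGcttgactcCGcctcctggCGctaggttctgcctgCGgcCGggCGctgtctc
Plxnc1: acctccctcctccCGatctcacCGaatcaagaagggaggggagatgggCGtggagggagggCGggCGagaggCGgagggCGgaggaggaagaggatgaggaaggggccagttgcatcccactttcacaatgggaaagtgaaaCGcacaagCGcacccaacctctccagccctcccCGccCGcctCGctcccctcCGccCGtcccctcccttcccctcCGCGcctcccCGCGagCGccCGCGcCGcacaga

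These windows held 4 CpG in Sema3d, 2 in Sema3a, 7 in Sema3e, 17 in Sema7a and 22 in Plxnc1, where the median over all windows was 6. The window of Sema3c held 39 and was not printed. It lies wholly within an exon of the deposited gene, which starts upstream of the RefSeq start, but it is counted in the summaries below. A window was used for 26 of the 34 genes (37 windows, some genes having several). Member windows on chromosome 18 were left out, so Sema6a, which was higher, was not looked up. Of the member windows 56.8% held at least 10 CpG, against 37.8% of all 32851 windows of the table. Taking the window with the most CpG for each gene, the median was 9 in 8 genes that were higher, 20 in 5 that were lower and 23 in 8 that did not pass. The ranges overlapped, from 2 to 17, 2 to 39 and 9 to 32. Some of these windows, those of Plxna2 and Sema3c among them, also lie partly or wholly within deposited exons. Others, those of Nrp1, Sema3a and Sema4d among them, lie within the deposited gene span, and the low ends of 2 are from Sema3a and Sema4d. The medians are therefore not all of sequence before the deposited gene starts. The RUNX motif TGTGGT, searched on both strands, was in 5 of the 37 windows (13.5%), against 14.0% of all windows. Among the printed windows it was found in Sema3a, where it begins 10 bases before the RefSeq start, inside the deposited gene span. The other 4 windows belonged to Plxna3, Plxnb3, Sema4d and Sema6d, and those of Sema4d and Sema6d also lie inside the deposited gene span.

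Sema7a and its receptor Plxnc1 showed the widest changes in each direction among the 26 tested genes. Sema7a (ENSMUSG00000038264, chromosome 9, 57940112 to 57962865, plus strand) was counted 438, 534 and 695 times in the WT libraries against 3281, 3018 and 2364 times in those labelled TCKO. The groups were far apart, the WT mean being 63.5 ± 17.9 CPM and the TCKO mean 338 ± 63.3 CPM (SD, n = 3), a 5.33-fold difference (log2 fold change 2.41 ± 0.22, edgeR adjusted p = 0.00049). The difference was 2.77 within both replicate 1 and replicate 2 and 1.63 within replicate 3 (log2 of CPM plus 2). Plxnc1 (ENSMUSG00000074785, chromosome 10, 94790866 to 94944835, minus strand) gave 571, 729 and 592 counts per WT library, with 152, 128 and 174 per TCKO library. Its WT libraries lay close together, at 71.2 ± 1.87 CPM, as did those labelled TCKO, at 17.6 ± 1.82 CPM, and the log2 fold change was -2.01 ± 0.09 (edgeR adjusted p = 4.29e-05), a 4.04-fold lower level. The RPKM ratio of Sema7a to Plxnc1 was between 1.85 and 2.97 in WT and between 34.4 and 59.7 in TCKO. Both calls held with replicates 1 and 2 summed, with edgeR adjusted p-values of 0.0286 for Sema7a and 0.0110 for Plxnc1, the highest over the alternatives.

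**Figure D4:**
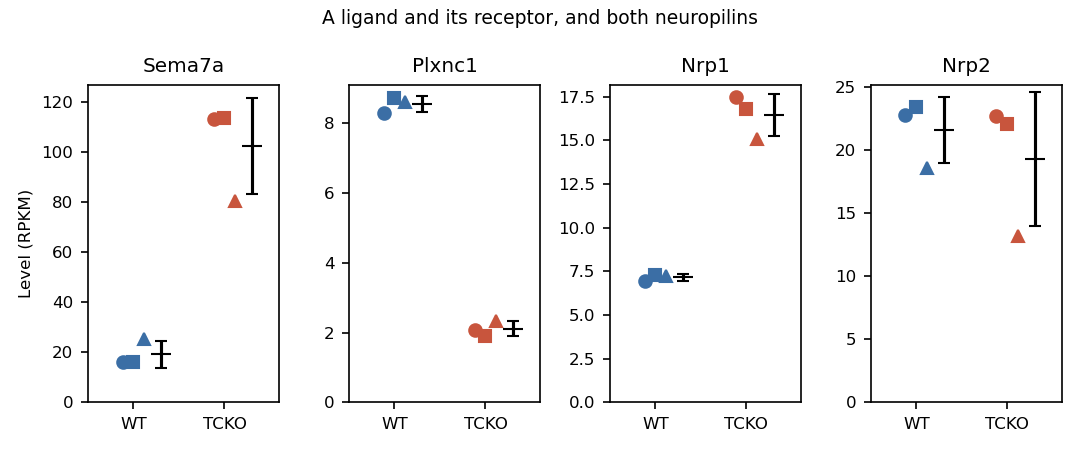
Level in RPKM (y axes, each from 0) of Sema7a, Plxnc1, Nrp1 and Nrp2 in the WT and TCKO libraries, with circles, squares and triangles for replicates 1, 2 and 3 and the mean with SD (n = 3) beside them. Sema7a and Nrp1 are higher and Plxnc1 lower in every TCKO library, and Nrp2 overlaps between the genotypes.

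Of the 12 transmembrane semaphorins, which act at cell contacts and in part can also signal backwards into the cell that carries them, 9 were tested. Sema4f, Sema6a and Sema6c were higher, Sema4d was lower and 5 did not pass. Sema4f (ENSMUSG00000000627, chromosome 6, 82911885 to 82939769) was at 113, 158 and 392 counts among the WT libraries, compared with 591, 532 and 1091 among the TCKO libraries. Replicate 3 was the highest library in each genotype, and the lowest TCKO library was above the highest WT library. The log2 fold change was 1.74 ± 0.47 (edgeR adjusted p = 0.0394), with differences of 2.15, 1.94 and 1.33 within replicates 1, 2 and 3 (log2 of CPM plus 2). Without WT replicate 3 the log2 fold change was 2.53 (edgeR adjusted p = 0.00271), and without any 1 of the other 5 libraries it was between 1.40 and 1.90 and the call was lost (edgeR adjusted p between 0.0687 and 0.144). It was also lost with a robust fit (0.0882) and with replicates 1 and 2 summed (0.225), and it passed with the replicate number as a block (0.000809).

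Sema6c (ENSMUSG00000038777, chromosome 3, 95160457 to 95174024) was counted 81, 98 and 60 times in the WT libraries against 136, 144 and 148 times in those labelled TCKO. The groups did not overlap, and the log2 fold change was 0.89 ± 0.15 (edgeR adjusted p = 0.00738, and 0.0933 with replicates 1 and 2 summed). Sema6a (ENSMUSG00000019647, chromosome 18, 47235598 to 47368870), a ligand of Plxna2 and Plxna4, gave 40, 41 and 28 counts per WT library, with 56, 59 and 93 per TCKO library. Its groups did not overlap either, the log2 fold change being 0.97 ± 0.25 (edgeR adjusted p = 0.0319). The Sema6a call was lost without WT replicate 1, 2 or 3 or TCKO replicate 2 or 3 (edgeR adjusted p between 0.0535 and 0.108). Sema4d (ENSMUSG00000021451, chromosome 13, 51685529 to 51793747), the ligand of Plxnb1, was at 46, 76 and 37 counts among the WT libraries, compared with 27, 24 and 18 among the TCKO libraries. The groups were separate at these low counts, the log2 fold change being -1.13 ± 0.28 (edgeR adjusted p = 0.0288), and the call was lost without WT replicate 1 or 2 or without TCKO replicate 1, 2 or 3 (edgeR adjusted p between 0.0535 and 0.114). Sema4d is also expressed by leukocytes and osteoclast precursors, and of the 10 haematopoietic and osteoclast markers Csf1r, Adgre1 and Itgam were lower in the same libraries (log2 fold changes of -1.21, -1.44 and -1.08). The other 7 did not pass. They were Ptprc (-1.20), Cx3cr1 (-0.99), Cd68 (-0.80), Ctss (-0.72), Fcer1g (-0.67), Cd14 (-0.10) and the osteoclast marker Acp5 (0.47). The part of these cells in the Sema4d difference was not tested.

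The 5 transmembrane semaphorins that did not pass had log2 fold changes between 0.08 and 0.51, and that of Sema6d was -0.0761 without TCKO replicate 3. Sema4c (ENSMUSG00000026121), a ligand of Plxnb2, was counted 260, 279 and 230 times in the WT libraries against 347, 296 and 301 times in those labelled TCKO. Its groups did not overlap, and its log2 fold change of 0.34 ± 0.10 had an edgeR adjusted p of 0.0516, which became 0.0261 with the replicate number as a block and 0.146 with the block and replicates 1 and 2 summed. Sema5a (ENSMUSG00000022231) gave 162, 221 and 150 counts per WT library, with 272, 281 and 175 per TCKO library. Its groups overlapped through replicate 3, the log2 fold change being 0.51 ± 0.21 (edgeR adjusted p = 0.129, 0.0394 with the block, and 0.229 with the block and replicates 1 and 2 summed). Sema4g, Sema4b and Sema6d had log2 fold changes of 0.36, 0.30 and 0.08 (edgeR adjusted p = 0.139, 0.327 and 0.815). Sema4a, Sema5b and Sema6b stayed at or under 8 counts per library and were not tested.

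Among the receptors Plxnc1 was the one plexin to change by more than 2-fold. Plxnb2 and Plxna1 together made up between 88.4% and 89.1% of the summed plexin RPKM in WT and between 89.5% and 90.3% in TCKO. Plxnb2 (ENSMUSG00000036606, chromosome 15, 89155549 to 89180788), a receptor for Sema4c, was at 8773, 10624 and 8384 counts among the WT libraries, compared with 7444, 6659 and 7634 among the TCKO libraries. The groups did not overlap, at 1046 ± 25.9 CPM and 845 ± 15.0 CPM, but the difference was small (log2 fold change -0.31 ± 0.07, edgeR adjusted p = 0.0255) and the call was lost without WT replicate 1 or 2 or TCKO replicate 1 or 2 (edgeR adjusted p between 0.0994 and 0.110) and with replicates 1 and 2 summed (0.328). Plxna1 (ENSMUSG00000030084, chromosome 6, 89316314 to 89362620), which pairs with neuropilins in class 3 signalling, was counted 6116, 7210 and 5625 times in the WT libraries against 5459, 4506 and 6051 times in those labelled TCKO. Its groups were separate in CPM by a narrow margin, with 682 as the lowest WT and 679 as the highest TCKO level, and its log2 fold change of -0.20 ± 0.09 did not pass (edgeR adjusted p = 0.177), whereas without TCKO replicate 3 it was -0.27 (edgeR adjusted p = 0.0465).

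Plxna2 (ENSMUSG00000026640, chromosome 1, 194618218 to 194816869), a receptor for class 3 and class 6 semaphorins, gave 687, 848 and 628 counts per WT library, with 461, 404 and 554 per TCKO library. Every TCKO library was below every WT library, the log2 fold change being -0.56 ± 0.10 (edgeR adjusted p = 0.00763, and 0.145 with replicates 1 and 2 summed). Plxnd1 (ENSMUSG00000030123, chromosome 6, 115954811 to 115995005), the receptor of Sema3e, was at 170, 200 and 180 counts among the WT libraries, compared with 226, 215 and 237 among the TCKO libraries. The groups did not overlap, and the log2 fold change of 0.34 ± 0.09 passed (edgeR adjusted p = 0.0373) but was not called by DESeq2 (adjusted p = 0.103), nor with no filter on low counts (edgeR adjusted p = 0.0905), nor without WT replicate 1 or 2 or TCKO replicate 1, 2 or 3 (edgeR adjusted p between 0.0543 and 0.138). The RPKM ratio of Sema3e to Plxnd1 was between 1.68 and 2.53 in WT and between 5.02 and 7.15 in TCKO. Plxna3, Plxna4 and Plxnb1, the last being the receptor of Sema4d, had overlapping groups and log2 fold changes of 0.02, 0.26 and -0.12 (edgeR adjusted p = 0.928, 0.585 and 0.709). Plxnb3 had between 2 and 13 counts and was not tested. Plxna4os1 had at most 2 counts, and Plxna4os2 and Plxna4os3 had 0 in all 6 libraries, below the floor of 3 counts.

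Of the neuropilins, Nrp1 rose and Nrp2 did not pass the test. Nrp1 (ENSMUSG00000025810, chromosome 8, 128358604 to 128503363), the co-receptor for Sema3a and for VEGF, was counted 560, 716 and 585 times in the WT libraries against 1496, 1320 and 1316 times in those labelled TCKO. The groups were far apart, at 70.1 ± 1.97 CPM and 161 ± 11.9 CPM (SD, n = 3), and the log2 fold change was 1.20 ± 0.08 (edgeR adjusted p = 0.000127). Nrp2 (ENSMUSG00000025969, chromosome 1, 62703285 to 62818695), the co-receptor for Sema3f and VEGF-C, gave 2230, 2780 and 1816 counts per WT library, with 2354, 2100 and 1389 per TCKO library. Its groups overlapped, the replicate 3 library being the lowest of each genotype, and its log2 fold change of -0.16 ± 0.20 did not pass (edgeR adjusted p = 0.622). The RPKM ratio of Nrp1 to Nrp2 was between 0.304 and 0.390 in WT and between 0.761 and 1.15 in TCKO, so the ranges of the ratio did not overlap. A test of the difference between the 2 neuropilins was not run.

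The genotype difference was then read separately within replicates 1 and 2, which were close to each other, and within replicate 3. The groups of the 15 genes that passed did not overlap, so their sign had to be the same in both sets and only the sizes are compared. Sema3a (1.21 and 1.20), Sema3e (1.83 and 1.82), Sema3c (-1.33 and -1.21) and Plxnc1 (-1.97 and -1.78) had differences of similar size in the pair and in replicate 3 (log2 of CPM plus 2). Sema7a (2.77 and 1.63) and Sema4f (2.04 and 1.33) were wider in replicates 1 and 2, and Sema3d (0.70 and 1.58) and Sema6a (0.45 and 1.20) were wider in replicate 3. Whether these sets differed was not tested. The TCKO library of that replicate is the one with the female pattern, and its part in these sizes was not tested.

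**Figure D5:**
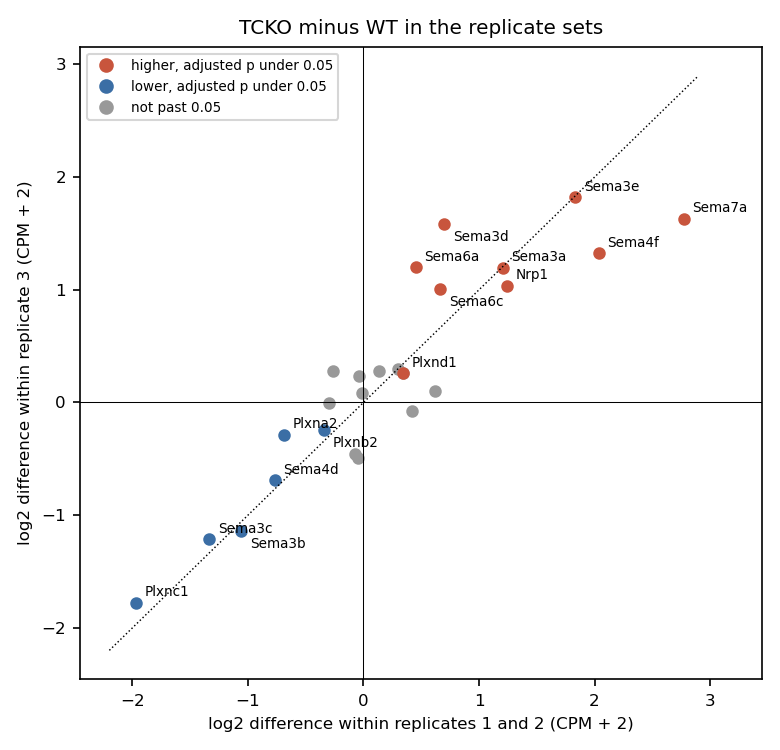
Difference between TCKO and WT in log2 of CPM plus 2, as the mean of replicates 1 and 2 (x axis) and in replicate 3 (y axis), for the 26 tested genes; the dotted line marks equal differences. Among the coloured genes (adjusted p under 0.05), whose sign is the same on both axes because their groups do not overlap, Sema7a and Sema4f lie below the line and Sema3d and Sema6a above it.

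Genes that work with semaphorin receptors were examined as lists of co-receptors and other binding partners (28 genes, 25 tested) and of cytoplasmic effectors (38 genes, 37 tested). Of the binding partners 8 were higher and 6 lower, where 9.07% and 8.63% of all tested genes were, with a median log2 fold change of -0.08. The higher ones included the VEGF receptors Kdr (6.12 ± 0.67), Flt1 (2.02 ± 0.29) and Flt4 (1.46 ± 0.15), the ligands Vegfc (2.88 ± 0.22) and Vegfa (0.70 ± 0.16), which share the neuropilins with class 3 semaphorins, and Met (1.69 ± 0.12), a receptor kinase that couples to B-type plexins. Kdr was at 3, 4 and 13 counts among the WT libraries, compared with 293, 266 and 837 among the TCKO libraries, and of the other endothelial markers Esam was also higher (2.47 ± 0.58, edgeR adjusted p = 0.0238), Erg was lower (-2.65 ± 0.42, edgeR adjusted p = 0.00505), and Pecam1 and Cdh5 stayed at or under 7 counts. The part of endothelial cells in the Kdr difference was not tested. The Sema7a-binding integrin genes split, with Itgb1 higher (0.54 ± 0.10) and Itga1 lower (-1.59 ± 0.24), and Itga5, another integrin gene, was higher (0.93 ± 0.13). L1cam (-1.74 ± 0.41) and Cntn2 (-2.54 ± 0.36), adhesion molecules of the Sema3a receptor complex in axons, were lower, as were Mst1r, a kinase related to Met (-1.004 ± 0.217), Cspg4 (-1.04 ± 0.29) and Plxdc2 (-0.68 ± 0.14).

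Of the 37 tested effectors below the plexins, 3 were higher and 3 lower, a share close to the 9.07% and 8.63% of all tested genes, and the median log2 fold change was -0.02. Crmp1, a cytoskeletal protein of the Sema3a response, was counted 26, 20 and 21 times in the WT libraries against 154, 147 and 146 times in those labelled TCKO. The groups were far apart, the log2 fold change being 2.77 ± 0.19 (edgeR adjusted p = 0.00013). Limk2 (0.58 ± 0.10), a kinase of cofilin, and Cfl1 (0.30 ± 0.08), the cofilin gene, were also higher. Farp2, an exchange factor that binds plexin A receptors, gave 514, 630 and 377 counts per WT library, with 309, 207 and 206 per TCKO library. Its groups did not overlap and its log2 fold change was -1.02 ± 0.18 (edgeR adjusted p = 0.00849), while Rras2 (-0.54 ± 0.11), a small GTPase, and Mical2 (-0.36 ± 0.09), which oxidises actin, were also lower. The small GTPase genes Rac1 (-0.01), Rhoa (-0.20) and Rnd1 (-0.63) did not pass (edgeR adjusted p = 0.938, 0.0783 and 0.265). Both lists together held 11 higher and 9 lower genes of 62 tested. With the replicate number as a block 11 were higher and 14 lower, where 12.04% and 11.5% of all genes were, and with replicates 1 and 2 summed 5 were higher and 0 lower (10 lower at an unadjusted edgeR p under 0.05), where 1.57% and 1.22% of all genes were.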

How the data were processed

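RNA-seq libraries of primary calvarial osteoblasts (3 WT, 3 TCKO) were grouped, and replicates numbered, by their titles. Per the labels and methods, the authors aligned reads to GRCm38 with STAR 2.7.0e and used featureCounts 2.0.0 over exons (Ensembl annotation). The deposited table gives unnormalized counts of each gene beside its summed exon length. The kit keeps strand, but the sources used here do not give the strand setting of the counting, so counts of overlapping genes on opposite strands are less certain. Such overlaps covered 10.7% of Plxna1, 7.27% of Sema4c and under 3% of the other tested genes concerned, and the overlapping genes had at most 91 counts in all, Plxna4 and its antisense transcripts aside.

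Symbols were added by gene identifier (99.4% matched). The genes and gene lists described here were chosen with earlier results of these data known. Genotypes were compared with edgeR 4.0.16 under R 4.3.3 (filterByExpr, TMM, glmQLFit and glmQLFTest on genotype, two-sided), with Benjamini-Hochberg adjustment over 13826 genes. Log2 fold changes are of TCKO over WT, and the SE was derived from the F statistic. CPM used TMM-scaled totals, and RPKM divided CPM by the exon length in kb. All members are named. Of the partner lists, those past 0.05 are named, with 3 others chosen after their values were seen. Genes that passed the filter include some that passed through the group where they are high.

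The methods were tested on simulated counts, drawn as independent libraries with a common dispersion. These do not mirror the closeness of replicates 1 and 2, so that test gives no error rate for the present libraries. Alternatives were DESeq2 size factors, upper-quartile factors, no filter, the RPKM minimum of the study (0.24), a mean count of 50 or more, DESeq2 1.42.0, a robust fit, the replicate number as a block, replicates 1 and 2 summed (with and without the block), a term for replicate 3, and each library left out. Deviations from the group means correlated between same-numbered libraries across genes (0.204, 0.214 and 0.347). Replicates 1 and 2 correlated about as well crosswise (0.188 and 0.225), so the data set replicate 3 apart but do not pair replicates 1 and 2 by number. The numbers were still used as pairs in the block, a pairing that the design does not state. No protein sequences were used here.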

Additional observations from a re-analysis of the deposited data

How the results depend on the processing

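With replicates 1 and 2 summed, 4 of the semaphorin, plexin and neuropilin genes were higher and 3 lower at an edgeR adjusted p under 0.05, and 14 of the 26 had an unadjusted p under 0.05. The share over all genes fell as well, to 1.57% higher and 1.22% lower. Adding the replicate block to that fit gave 7 higher and 3 lower. Of the partner genes, 5 were higher and 0 lower in the summed edgeR fit (10 lower at an unadjusted p under 0.05), 4 were lower with the block added, 14 with the replicate block alone and 21 with a term for replicate 3, where 4.09%, 11.5% and 15.1% of all genes were lower, against 9 (8.63%) in the analysis reported, 9 with DESeq2 and 9 at the 0.24 RPKM minimum. When 1 library was left out, the number of lower partner genes ran from 3 (without WT replicate 1 or 2 or TCKO replicate 1) through 5 (without TCKO replicate 2) to 13 (without TCKO replicate 3), while over all genes the share that was lower ran from 3.98% to 10.9%. Of the 15 calls, 7 held in all 17 alternatives. With the replicate block all 15 were kept and Sema4c and Sema5a also passed, and no other member's call changed. With the block and replicates 1 and 2 summed, Sema4c (0.146) and Sema5a (0.229) did not pass, and Plxna2, Plxnb2, Plxnd1, Sema4d and Sema6a were lost (edgeR adjusted p between 0.0631 and 0.271). Among genes that did not pass, 5 changed sign when 1 library was left out, over the ranges -0.30 (without TCKO replicate 1) to 0.0544 (without TCKO replicate 3) for Nrp2, -0.0679 (without WT replicate 3) to 0.0814 (without WT replicate 1) for Plxna3, also -0.0425 without TCKO replicate 1, -0.32 (without WT replicate 3) to 0.0344 (without WT replicate 1) for Plxnb1, -0.44 (without TCKO replicate 2) to 0.0408 (without TCKO replicate 3) for Sema3f and -0.0761 (without TCKO replicate 3) to 0.24 (without TCKO replicate 2) for Sema6d. The mean of at least 50 counts gave no value for Sema4d, which it removes. The causes of these shifts were not tested. Depth limits the 8 untested genes, which had at most 13 counts in a library.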

Other observations

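Sema4f lies 423 kb before Tet3, 1 of the 3 targeted genes, on chromosome 6, an observation made after its values were seen. Of the 16 other tested genes in the interval between the outer ends of Sema4f and Tet3, Dok1 (log2 fold change 1.04 ± 0.07, edgeR adjusted p = 0.000127) and Loxl3 (0.79 ± 0.09, edgeR adjusted p = 0.00132) were higher and the others did not pass. Over all tested genes 9.07% were higher, and genes on the far side of Sema4f were not examined. The gene nearest to Sema4f, M1ap, had a log2 fold change of -0.28 ± 0.45 and did not pass (edgeR adjusted p = 0.712).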
